A study of Mus musculus with 6 samples.

Results

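The fringe genes Lfng, Mfng and Rfng and the O-fucosyltransferase gene Pofut1 encode enzymes that attach and extend O-linked fucose on Notch receptors. Their RNA was measured on Affymetrix mouse arrays in 6 primary thymic lymphomas, 1 array per tumour. All probe sets annotated with exactly 1 of these 4 symbols were taken, which gave 8 of 45101 probe sets and 4 of 18193 named genes. These 4 genes were picked with the Notch1f/f against Notch1+/+ difference already known, that of Lfng in particular. Their genotype differences are therefore given as a description, with no test.

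Of the 6 mice, 3 were Notch1f/f and were 8 to 10 weeks old, and 3 were Notch1+/+ and were 18 to 20 weeks old. All 6 were IkL/L, that is homozygous for an allele that lowers Ikaros, a lymphoid zinc finger transcription factor, and all were CD4-Cre+, carrying a transgene whose recombinase is made in cells that use the Cd4 promoter. In the Notch1f/f mice both Notch1 alleles carried loxP sites, and the labels describe the resulting lesion as a deletion of the promoter and first exon. Cells that never expressed Cre kept intact alleles, and age changed together with genotype, so the 2 cannot be told apart. The cells were collected from disrupted tumours with no sorting step in the labels, so a lower signal can come from fewer cells of a type or from less RNA per cell, and these cannot be told apart.

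Notch receptors carry many epidermal growth factor-like repeats. Pofut1 places a fucose on serine or threonine residues of these repeats in the endoplasmic reticulum. Fringe enzymes then add N-acetylglucosamine to that fucose in the Golgi, and galactose can follow. This sugar changes which ligands a receptor answers to, in general favouring Delta-like over Jagged ligands. In the mouse thymus, Lfng in early progenitors is known to strengthen their hold on the Delta-like ligand of the stroma, and its level is low in double-positive thymocytes.

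Of these genes, the promoter table from RefSeq (GRCm38.p6) held Lfng, Rfng and Pofut1. The 250 bases before the Lfng start are shown because Lfng is the gene whose 2 groups of tumours did not overlap. They lie at chr5:140607091-140607340 on the plus strand and are printed 5′ to 3′. Capitals mark matches, on either strand, to TGGGAA, a core found in the recognition sequences of both RBPJ (the DNA-binding partner of cleaved Notch) and Ikaros, and to the E-box CACGTG.
Lfng promoter: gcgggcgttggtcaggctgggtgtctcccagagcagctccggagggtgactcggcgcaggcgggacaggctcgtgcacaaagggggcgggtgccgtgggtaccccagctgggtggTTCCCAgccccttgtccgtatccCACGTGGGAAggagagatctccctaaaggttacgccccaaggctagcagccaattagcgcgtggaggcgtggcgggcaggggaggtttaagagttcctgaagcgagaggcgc
TGGGAA matched at 2 places, 135 to 130 bases (as its reverse complement) and 108 to 103 bases before the start. The E-box lay 112 to 107 bases before it and overlapped the second match. TGGGAA was found in the same window of 21.6% of 32851 promoters, and CACGTG in 6.02%. Neither was found in the windows of Rfng and Pofut1, which says only that these letters are not there. The G and C content was 66.0% for Lfng, 75.6% for Rfng and 80.4% for Pofut1, against a median of 52.4% over all promoters. A match is a description of the letters and not evidence of binding.

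Each array had a mean of 100 with the top and bottom 2% of values set aside, so likeness in scale came from the processing. The authors' values are MAS5 signal intensities, which summarise the probes of a probe set on a linear scale. Between 23.1% and 25.0% of probe sets exceeded an intensity of 100, and Pearson's r between arrays ranged from 0.918 to 0.962. Notch1 itself gave intensities of 3294, 3043 and 3419 in the Notch1f/f tumours and of 3637, 2532 and 2838 in the Notch1+/+ tumours on its brighter probe set. The dimmer one gave 2026, 1346 and 2212 in the Notch1f/f tumours and 1793, 655.9 and 567.9 in the Notch1+/+ tumours, overlapping through Notch1+/+ tumour 1 (log2 difference 1.04 ± 0.40, SE; limma adjusted p = 0.319). The positions of these probe sets relative to the deleted part were not looked up, so they check neither the deletion nor the labels. T lineage markers, which the labelled cell type should carry, were strong in all tumours, and their 9 measured genes summed to 18174 to 24283 in the Notch1f/f tumours and to 14864 to 18057 in the Notch1+/+ tumours. Of these, the CD3 chains Cd3e and Cd3d were at 2167 ± 619.6 and 4898 ± 851.0 in Notch1f/f tumours, against 1437 ± 182.3 and 3687 ± 810.3 in Notch1+/+ tumours (SD, n = 3 each). Probe sets that serve as controls for 18S ribosomal RNA stood higher on the Notch1f/f arrays, at 249.5 to 318.9 against 64.8 to 125.1 for the 3′ probe set. The 3′ to 5′ ratio of the Gapdh controls was 0.836 to 1.03 on Notch1f/f arrays and 0.767 to 1.08 on Notch1+/+ arrays. That of the beta-actin controls was 1.35 to 1.64 on Notch1f/f arrays and 1.36 to 2.23 on Notch1+/+ arrays, highest on the array of Notch1+/+ tumour 1, the tumour with the lowest Lfng. The part of these array differences in any result below was not tested.

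Lfng, the fringe enzyme best known from early thymocytes, was the member whose groups did not overlap. Its informative probe set, 1420643_at, had intensities of 51.7, 44.3 and 24.5 in Notch1f/f tumours 1, 2 and 3, and of 4.6, 15.2 and 5.3 in Notch1+/+ tumours 1, 2 and 3. Every Notch1f/f tumour thus lay above every Notch1+/+ tumour, with the nearest pair being Notch1f/f tumour 3 and Notch1+/+ tumour 2. The means were 40.2 ± 14.1 in Notch1f/f tumours and 8.37 ± 5.93 in Notch1+/+ tumours (SD, n = 3 each), a ratio of 4.80.

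On the scale of log2(intensity + 16), which shrinks differences between dim values, the Lfng difference was 1.20 ± 0.27 (SE), or 2.29-fold. It was 2.24 ± 0.52 with 1 added in place of 16 and 0.52 ± 0.12 with 64 added, so the direction held and the size depended on how dim values were treated. Notch1+/+ tumours 1 and 3 lay under 7.60, the intensity at which probe sets were left out of the fit when their mean on the log2 scale fell below it. No detection call was used, so such values cannot be told from background. Leaving out single tumours gave differences from 1.05 to 1.42.

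A second Lfng probe set, 1449943_at, was annotated to the same RefSeq transcript and gave almost no signal. It read 0.8, 0.5 and 0.8 in the Notch1f/f tumours and 0.3, 1.6 and 0.8 in the Notch1+/+ tumours. It was under the filter and was not fitted. The Lfng difference accordingly rests on 1 probe set.

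**Figure D1:**
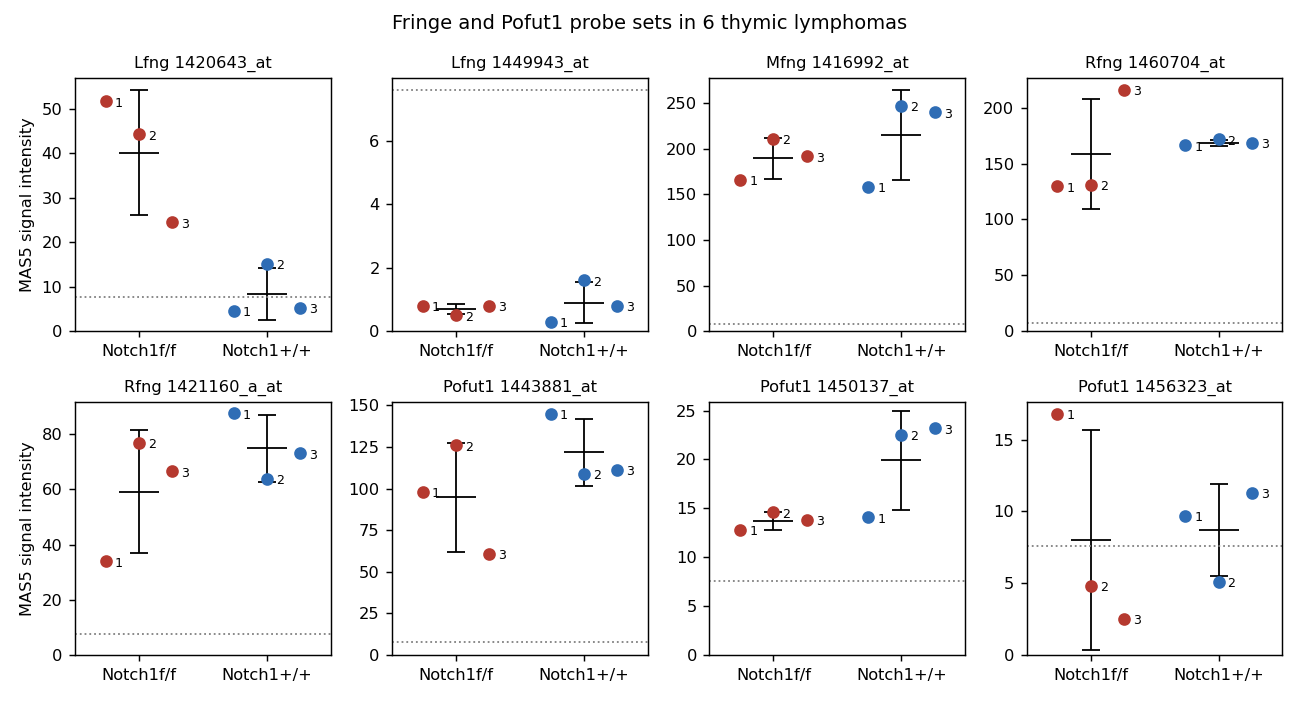
Intensity (MAS5 signal, linear axis from 0, own scale in each panel) of the 8 probe sets of Lfng, Mfng, Rfng and Pofut1; points are tumours numbered 1 to 3 in each group, bars the mean ± SD of 3, and the dotted line the intensity of 7.60 used as the filter. The groups are separate for Lfng 1420643_at and overlap in the other 7 panels, where Lfng 1449943_at stays at or under 1.6.

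Mfng, the manic fringe enzyme, was read by 1 probe set at a clear signal in all tumours. It gave 166.1, 210.5 and 191.5 in the Notch1f/f tumours and 158.5, 246.8 and 239.8 in the Notch1+/+ tumours. The groups overlapped, since Notch1+/+ tumour 1 was the lowest of all 6. The log2 difference was -0.15 ± 0.24 (SE), smaller than the spread between tumours of 1 group (0.26, pooled SD on the log2 scale).

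Rfng, the radical fringe enzyme, had 2 probe sets, and they ordered the tumours differently. The brighter one, 1460704_at, gave 129.6, 131.0 and 215.8 in the Notch1f/f tumours and 166.2, 171.6 and 168.6 in the Notch1+/+ tumours. The 3 Notch1+/+ values were close together (168.8 ± 2.71, SD, n = 3), and the Notch1f/f values fell on both sides of them (158.8 ± 49.4). Its log2 difference was -0.12 ± 0.25 (SE).

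The other Rfng probe set, 1421160_a_at, gave 34.0, 76.9 and 66.6 in the Notch1f/f tumours and 87.6, 63.8 and 73.0 in the Notch1+/+ tumours. Here Notch1f/f tumour 1 was alone at the low end and the remaining 5 tumours were mixed, with a log2 difference of -0.31 ± 0.29 (SE). Across the 6 tumours the 2 Rfng probe sets correlated at r = 0.38.

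Pofut1, which adds the fucose that fringe enzymes extend, was read by 3 probe sets. The brightest, 1443881_at, gave 98.1, 126.0 and 60.7 in the Notch1f/f tumours and 145.1, 109.0 and 111.2 in the Notch1+/+ tumours. The groups overlapped through Notch1f/f tumour 2, and the log2 difference was -0.35 ± 0.29 (SE), about the size of the spread between tumours of 1 group (0.35, pooled SD).

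The Pofut1 probe set annotated to the RefSeq transcript, 1450137_at, was dimmer and gave 12.8, 14.6 and 13.8 in the Notch1f/f tumours and 14.1, 22.5 and 23.2 in the Notch1+/+ tumours. Of these values, only that of Notch1f/f tumour 2 crossed a Notch1+/+ value, that of tumour 1, and the log2 difference was -0.26 ± 0.19 (SE). The third, 1456323_at, ranged from 2.5 to 16.8, with its highest and lowest values both in Notch1f/f tumours, and had a log2 difference of -0.08 ± 0.23 (SE). The 3 Pofut1 probe sets did not share a pattern, with r between pairs of -0.06 to 0.37 over the 6 tumours.

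Of the 8 probe sets, 7 passed the filter, and each of the 4 genes had at least 1. The log2 difference was above 0 for 1 of the 7, Lfng, and below 0 for the other 6, from -0.35 to -0.08, while 45.0% of all 27026 tested probe sets were above 0 and their median was -0.04. The groups did not overlap for 1 of the 7, against 18.6% of all tested probe sets; with Notch1f/f tumour 2 or Notch1+/+ tumour 1 omitted that count was 3, and with Notch1f/f tumour 3 omitted it was 2. Since the genes were picked from this contrast, nothing is read from these counts.

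Between genes, the tumour patterns of the members differed. Over the 6 tumours, the brightest probe sets of Lfng and Mfng correlated at r = -0.20, those of Lfng and Rfng at -0.53, those of Lfng and Pofut1 at -0.31, and those of Rfng and Pofut1 at -0.58. After each group's mean was subtracted, these were 0.25, -0.71, 0.42 and -0.87. The closest pair was Mfng with the dimmer Pofut1 probe set 1450137_at, at r = 0.87 and at 0.96 after that subtraction, both being lowest in tumour 1 of each genotype. Tumour numbers follow the order of the sample records, so equal numbers do not link tumours between the genotypes. These correlations describe 6 arrays that share scaling and labelling, and they carry no test.

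**Figure D2:**
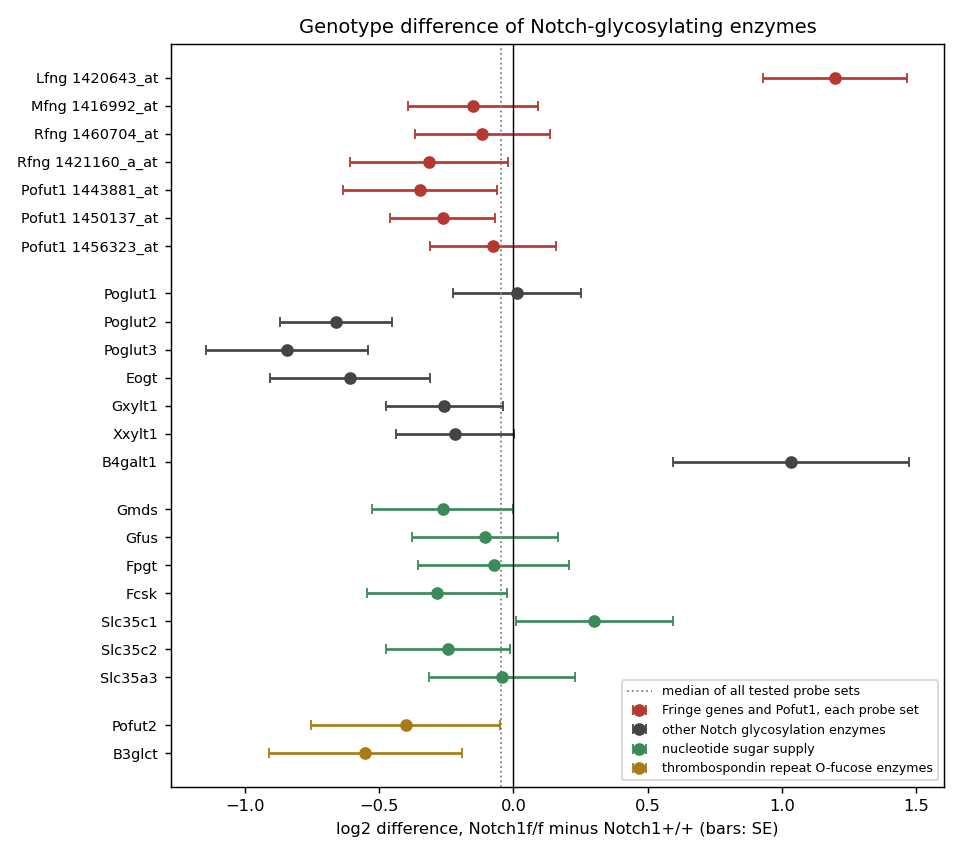
Log2 difference (Notch1f/f minus Notch1+/+, on log2(intensity + 16)) with its SE for the 7 fitted probe sets of Lfng, Mfng, Rfng and Pofut1 and for genes of 3 related lists, each by its brightest probe set. Lfng, at 1.20, and B4galt1, at 1.03, stand to the right of 0, while Poglut2, Poglut3 and Eogt stand to the left at -0.61 to -0.84. The dotted line is the median of all tested probe sets, -0.04.

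The other enzymes that place sugars on Notch repeats were mostly at or below the level of the Notch1+/+ tumours. Of 8 genes, 7 were tested, of which 2 were above 0 and 5 below, with a median log2 difference of -0.26 against -0.04 over all probe sets. In limma none passed an adjusted p of 0.05, which 0.0185% of all tested probe sets did, and none did so under any alternative setting. Of the 7, 3 had an unadjusted p under 0.05, which 13.5% of all tested probe sets had. The groups did not overlap for 2 of the 7, against 18.6% of all tested probe sets. Gxylt2, a xylosyltransferase, stayed under an intensity of 10 in all tumours and was not tested.

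B4galt1, the galactosyltransferase that acts after fringe, had 1008, 506.0 and 504.9 in the Notch1f/f tumours and 206.6, 206.3 and 639.0 in the Notch1+/+ tumours. Notch1+/+ tumour 3 was within the Notch1f/f range, so the groups overlapped, and the log2 difference of 1.03 ± 0.44 (SE) did not pass (limma adjusted p = 0.354). Lfng was low in that same tumour, so the 2 genes did not share a pattern there.

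Poglut2, an O-glucosyltransferase, had 376.9, 428.3 and 297.7 in the Notch1f/f tumours and 632.8, 512.7 and 614.9 in the Notch1+/+ tumours. All 3 Notch1f/f values lay under all Notch1+/+ values, and the log2 difference was -0.66 ± 0.21 (SE; limma adjusted p = 0.290), with its other probe set at -0.93. Poglut3, its relative, had 18.8 ± 14.0 in Notch1f/f tumours and 43.8 ± 9.01 in Notch1+/+ tumours (SD, n = 3 each; limma adjusted p = 0.304). Xxylt1, which extends xylose, also had groups without overlap, at 36.9 ± 1.58 against 45.7 ± 4.54 (limma adjusted p = 0.679), a difference of -0.22 on the log2 scale. Eogt, which adds extracellular O-linked N-acetylglucosamine, was at 49.3 ± 15.5 against 83.7 ± 25.3 (limma adjusted p = 0.400) on its brightest probe set, and its 3 probe sets had log2 differences from -0.61 to -0.0037. Poglut1, the main O-glucosyltransferase of Notch, was level at 120.6 ± 13.4 against 120.2 ± 21.8.

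Genes that supply the nucleotide sugars showed small differences. All 7 were tested, 1 above 0 and 6 below, with a median log2 difference of -0.10. In limma 0 passed an adjusted p of 0.05, and 0 had an unadjusted p under 0.05. The shares of all tested probe sets were 45.0% above 0, 13.5% with such a p and 18.6% without overlap. The groups did not overlap for 1, Slc35c2, a transporter-like protein that promotes Notch fucosylation, at 40.4 ± 8.17 against 50.3 ± 1.56 (SD, n = 3 each; limma adjusted p = 0.662). Fcsk, the fucose kinase of the salvage route, had 33.4 ± 7.51 against 44.7 ± 13.0, and Slc35c1, the Golgi GDP-fucose transporter, 137.0 ± 25.6 against 111.6 ± 41.1, in Notch1f/f and Notch1+/+ tumours. Several probe sets of Gmds, Fcsk and Slc35c2 differed in sign.

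Pofut2 and B3glct, which build the fucose-glucose unit of thrombospondin repeats and do not act on Notch repeats, were both below 0. Pofut2 had 146.5 ± 87.4 in Notch1f/f tumours and 182.7 ± 35.3 in Notch1+/+ tumours (limma adjusted p = 0.631). B3glct had 74.9 ± 3.91 against 128.4 ± 63.4 (limma adjusted p = 0.516), with Notch1+/+ tumour 3 alone at 58.0.

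The substrates and ligands were next. Of 9 Notch receptor and ligand genes, 7 were tested, with 6 above 0, a median of 0.15, none past an adjusted p of 0.05 in limma, 1 at an unadjusted p under 0.05 and 2 without overlap. Over all tested probe sets, 45.0% were above 0, 13.5% had such a p and 18.6% had no overlap. Notch3, a receptor and itself a Notch-induced gene, had 2 probe sets. The brighter gave 1555, 1091 and 1036 in the Notch1f/f tumours and 932.0, 625.7 and 902.6 in the Notch1+/+ tumours, without overlap (limma adjusted p = 0.337). The dimmer gave 758.9, 384.7 and 367.7 against 380.6, 219.4 and 302.0, and there the groups overlapped (limma adjusted p = 0.389). Dll1, a Delta-like ligand, was without overlap but dim, at 11.7 ± 1.65 against 8.73 ± 0.85 (SD, n = 3 each, limma adjusted p = 0.671). Jag1, a Jagged ligand, was at 12.5 ± 4.24 against 7.83 ± 1.96. Dll3 stayed under 10 in all tumours.

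Of the genes of Notch cleavage and the CSL complex, 11 were named on the array and 10 tested, 5 above and 5 below 0, with a median log2 difference of 0.13. None passed an adjusted p of 0.05 in limma. Only Furin, 1 of the 10, had an unadjusted p under 0.05 and groups without overlap. Among all tested probe sets, 13.5% had such a p and 18.6% had no overlap. Furin, the protease that cuts Notch during its passage to the surface, had 109.3, 80.0 and 168.7 in the Notch1f/f tumours and 38.3, 63.4 and 52.8 in the Notch1+/+ tumours. Its groups did not overlap, at a log2 difference of 0.97 ± 0.30 (SE; limma adjusted p = 0.290). Maml1, a coactivator of the complex, was at 298.9 ± 44.5 against 208.4 ± 49.5, and Psen2, a gamma-secretase subunit, at 86.9 ± 30.6 against 54.6 ± 10.5 (SD, n = 3 each). Maml2 stayed under 10 in all tumours. Probe sets of 1 gene could differ in size. Log2 differences ranged from -1.01 to -0.0088 for Adam10, from -0.83 to -0.03 for Rbpj and from -0.52 to -0.06 for Adam17. Tested probe sets of Aph1b were also all below 0, and those of Psen2, Ncstn, Aph1a and Maml1 all above.

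Genes that Notch activates had log2 differences on both sides of 0. Of 14 named on the array, 12 were tested, 4 above and 8 below 0, with a median log2 difference of -0.28. None passed an adjusted p of 0.05 in limma. Of the 12, 2 had an unadjusted p under 0.05 and 1 had groups without overlap, where 13.5% and 18.6% of all tested probe sets did. Dtx1, a Notch-induced ubiquitin ligase gene, was the 1 target without overlap (log2 difference 0.49 ± 0.16, SE; limma adjusted p = 0.295), and its other probe set was at 0.05. Hes1, a repressor induced by Notch, was at 463.1 ± 315.1 in Notch1f/f tumours and 163.2 ± 77.8 in Notch1+/+ tumours (SD, n = 3 each), a log2 difference of 1.25 ± 0.53 (SE; limma adjusted p = 0.354). It was highest in Notch1f/f tumour 3, at 784.1, where Lfng was the lowest of the Notch1f/f tumours. Nrarp, a feedback inhibitor of Notch, gave 543.0, 338.0 and 54.9 in Notch1f/f tumours 1, 2 and 3, in the same order as Lfng. In Notch1+/+ tumours 1, 2 and 3 it gave 269.1, 406.9 and 2290, highest in tumour 3, where Lfng read 5.3. Its log2 difference was -1.44 ± 0.87 (SE, limma adjusted p = 0.485), with its other probe set at -1.43.

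For each member the 3 genes with the most similar profile were sought among 4321 named probe sets with an SD of at least 0.5 on the log2 scale, by Pearson's r over the 6 tumours. The 3 nearest to Lfng were Ms4a6b, a membrane protein of T cells (r = 0.998), Cbl, a ubiquitin ligase of T cell receptor signalling (0.986), and Spats2l (0.982). All of these had every Notch1f/f tumour above every Notch1+/+ tumour, which largely follows from their being picked for likeness to Lfng. Once each group's mean was removed, r was 0.991, 0.927 and 0.908. The genes were picked for their r over these same 6 tumours, so this is not separate evidence of likeness. Ms4a6b gave 143.1, 106.0 and 48.7 in the Notch1f/f tumours and 9.3, 27.8 and 9.9 in the Notch1+/+ tumours on this probe set, the same order of tumours as Lfng. The other Ms4a6b probe set was at 0.959, and at 0.790 without the group means. The other 2 Cbl probe sets were at 0.354 and 0.564, and the other 3 of Spats2l at 0.218, 0.470 and 0.892.

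An r of 0.9 was reached with Lfng by 42 of the 4321 probe sets, or 0.972%, with Mfng by 1.53%, with Rfng by 0.231% and with Pofut1 by 3.45%. Mfng was nearest to Nubp1 (r = 0.995), an iron-sulphur assembly factor, Ap2a2 (0.978), a clathrin adaptor subunit, and Eif2s3x (0.978), a translation initiation subunit. The other probe sets of Nubp1 were at 0.863 and 0.852, those of Ap2a2 from -0.34 to 0.49, and those of Eif2s3x at 0.289 and 0.296. Rfng was nearest to Slpi (0.975), a protease inhibitor, Rhob (0.973), a small GTPase, and Mfap2 (0.953), a microfibril protein, all 3 highest in Notch1f/f tumour 3. Pofut1 was nearest to Ube3a (0.996), a ubiquitin ligase, Nol8 (0.995), a nucleolar protein, and Stx12 (0.991), a syntaxin, all 3 lowest in Notch1f/f tumour 3. The other probe sets of Ube3a ranged from 0.158 to 0.781, those of Nol8 were at 0.979 and 0.937, and that of Stx12 was at 0.945. No gene was shared between these sets of nearest genes.

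**Figure D3:**
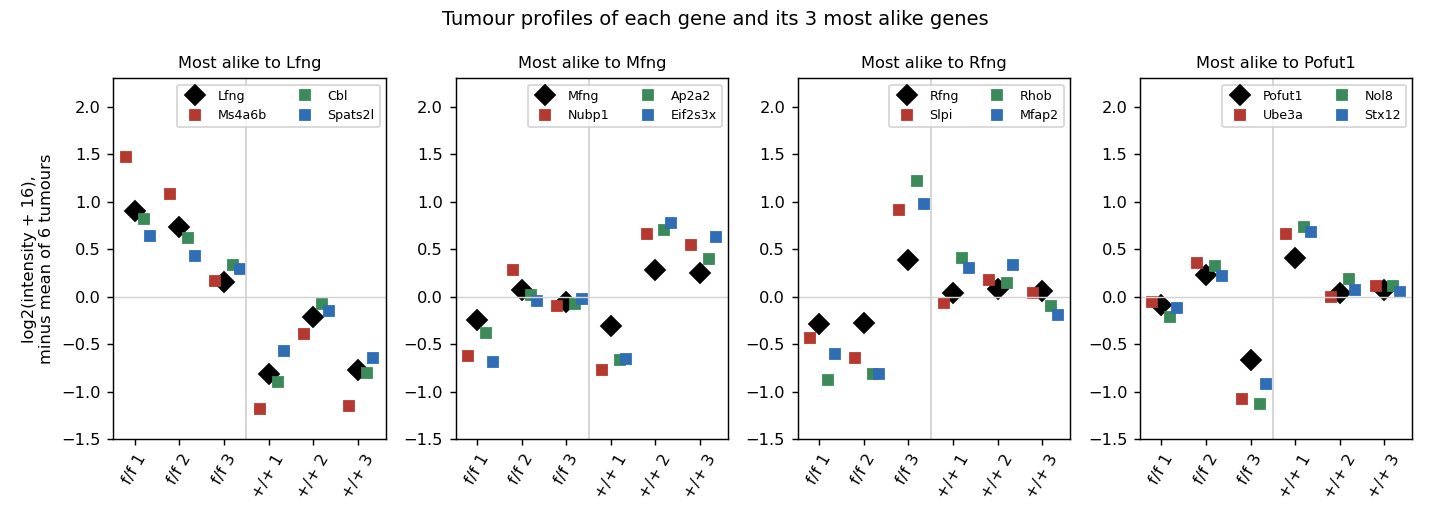
Profiles over the 6 tumours of each member's brightest probe set (diamonds) and of its 3 most similar genes (squares), as log2(intensity + 16) minus the mean of the 6 tumours; Notch1f/f tumours are left of the vertical line and Notch1+/+ tumours right of it. Lfng and its neighbours are above 0 in all 3 Notch1f/f tumours, whereas Rfng and Pofut1 and their neighbours are set apart mainly by Notch1f/f tumour 3.

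Markers of maturity and of other cell types are given beside Lfng. The 11 measured mature T cell genes had 10 log2 differences above 0 and a median of 1.26, with none past an adjusted p of 0.05 in limma, 9 at an unadjusted p under 0.05 and 9 without overlap, against 13.5% and 18.6% of all tested probe sets. Their summed intensity was 2480, 2245 and 2742 in Notch1f/f tumours 1, 2 and 3, and 452.3, 1372 and 1154 in Notch1+/+ tumours 1, 2 and 3. Within these sums, Klf2 gave 197.1, 232.7 and 946.1 in Notch1f/f tumours 1, 2 and 3. The highest sum, that of Notch1f/f tumour 3, therefore rests on this gene. Ms4a4b, a membrane protein of T cells, was at 325.9 ± 139.7 against 24.1 ± 15.1 (limma adjusted p = 0.0694), and Ccr7, a lymph node homing receptor, at 70.2 ± 20.5 against 6.13 ± 9.33 (limma adjusted p = 0.0982). Of 9 double-positive thymocyte genes, 6 were above 0, with a median of 0.16. In limma none passed an adjusted p of 0.05 and 4 had an unadjusted p under 0.05. The groups did not overlap for 4, of which 3 were above and 1 below. Arpp21, an RNA-binding protein, was at 422.2 ± 140.3 against 986.7 ± 125.7, and Cd8a, a coreceptor, at 2567 ± 252.0 against 1601 ± 503.6. Among 9 tested double-negative thymocyte genes, 4 were above 0, the median was -0.01, and Dntt, the polymerase of V(D)J joining, was at 2525 ± 928.6 against 1561 ± 624.9.

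Summed B cell and macrophage markers were higher in every Notch1f/f tumour than in any Notch1+/+ tumour, while summed dendritic cell markers overlapped. In limma no gene of these 3 lists reached an adjusted p of 0.05; an unadjusted p under 0.05 was seen for 2 of 7 B cell, 6 of 10 macrophage and 3 of 5 dendritic cell genes, and for 13.5% of all tested probe sets. The 9 measured B cell markers, of which 7 were tested and 7 were above 0, summed to 1341, 1827 and 3493 in Notch1f/f tumours 1, 2 and 3, and to 360.6 to 1114 in the Notch1+/+ tumours. Among them, Cd79a, a chain of the B cell receptor, read 15.0, 12.1 and 121.4 in Notch1f/f tumours 1, 2 and 3 and 6.7 to 9.8 in the Notch1+/+ tumours. Pax5, the B lineage factor, reached 22.9 in Notch1f/f tumour 3 and at most 7.0 elsewhere, and Cr2, a complement receptor of mature B cells, stayed under 10. Cd79b was at 51.3 ± 13.9 against 17.6 ± 9.45, and Ighm at 2004 ± 1022 against 642.4 ± 375.2. Ighm gave 1195, 1665 and 3153 in Notch1f/f tumours 1, 2 and 3. In Notch1+/+ tumours 1, 2 and 3 it gave 1017, 266.3 and 644.2, so this gene made up most of each B cell sum. The 10 macrophage markers, 9 above 0, summed to 1479 to 2903 against 264.1 to 943.9, with C1qb at 328.8 ± 126.5 against 95.6 ± 66.9 and C1qc at 220.9 ± 53.6 against 71.4 ± 47.9. The 9 dendritic cell markers, 4 of 5 tested above 0, summed to 463.4 to 3310 against 175.1 to 586.2, with H2-Aa at 567.7 ± 572.3 against 97.6 ± 58.5, Cd74 at 744.8 ± 940.7 against 86.7 ± 60.4, and Xcr1 and Cd209a under 10. In Notch1f/f tumour 3, H2-Aa gave 1223 and Cd74 1830, which was most of its dendritic cell sum of 3310. On the probe sets used, Zbtb46, Flt3 and Siglech reached at most 13.4, 18.4 and 12.8 in any tumour. Itgax reached 64.8 and Bst2 221.8. Which cells gave the H2-Aa and Cd74 signal was not tested. For all 3 lists the highest sum was in Notch1f/f tumour 3, which had the lowest Lfng of its group, at 24.5. Their part in the Lfng difference was not tested.

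The sums of the 3 stromal lists overlapped between the groups. Summed thymic epithelial markers were 88.2 to 108.2 in Notch1f/f tumours and 84.6 to 126.3 in Notch1+/+ tumours, with Krt14 and Psmb11 under 10 in all, Ccl25, a chemokine, at 29.6 ± 10.3 against 43.4 ± 17.9 and Dll4, the thymic Notch ligand, at 11.4 ± 4.04 against 8.70 ± 3.60. Of 7 tested fibroblast markers, 6 were below 0, with a median log2 difference of -0.36. In limma 1 of them had an unadjusted p under 0.05, against 13.5% of all tested probe sets. The 8 measured ones summed to 876.8 to 1967 against 1404 to 2568. Pdgfrb, a growth factor receptor and the brightest of them by mean, gave 813.0, 1029 and 1827 in Notch1f/f tumours 1, 2 and 3 and 1976, 1282 and 1103 in Notch1+/+ tumours 1, 2 and 3. Without Pdgfrb, a choice made after the values were seen, the sums were 63.8, 124.3 and 139.4 in Notch1f/f tumours 1, 2 and 3 and 230.3, 1285 and 300.2 in Notch1+/+ tumours 1, 2 and 3, without overlap, and their part in the Lfng difference was not tested. Col1a2, a collagen gene, had 41.4 ± 29.1 against 407.0 ± 498.9, and Col1a1 4.57 ± 6.10 against 25.3 ± 21.3. Endothelial markers summed to 292.2 to 306.3 against 212.8 to 386.5, with Cdh5, Tek and Tie1 under 10 in all, Esam at 8.20 ± 10.1 against 14.2 ± 6.24 and Pecam1 at 210.2 ± 4.90 against 174.6 ± 84.0.

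**Figure D4:**
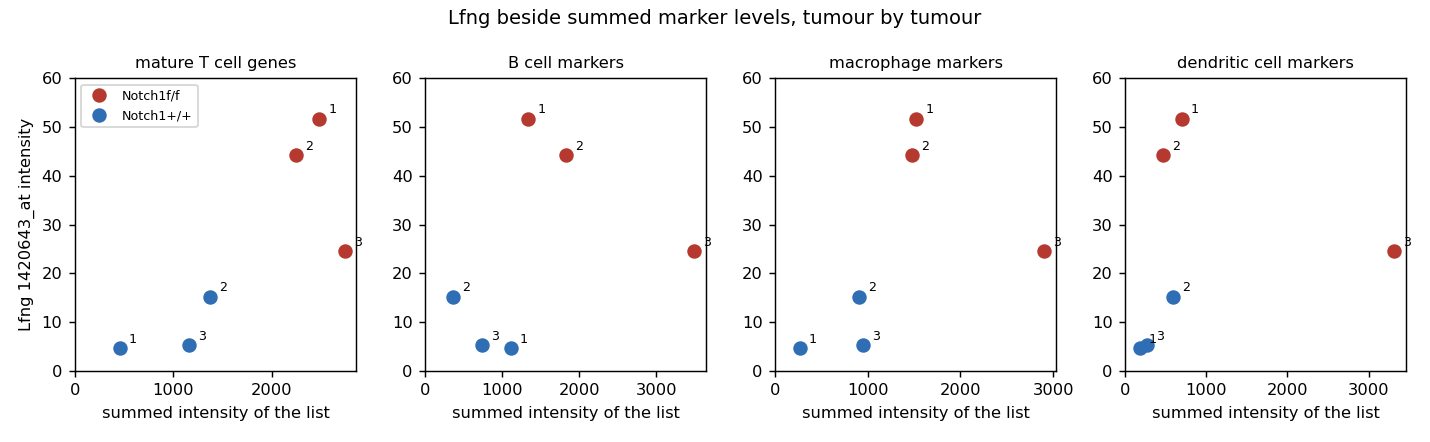
Intensity of Lfng probe set 1420643_at (vertical axis) against the summed intensity of the mature T cell, B cell, macrophage and dendritic cell lists (horizontal axes), each point 1 tumour with its number. Notch1f/f tumours lie at higher Lfng than Notch1+/+ tumours in every panel. Notch1f/f tumour 3, with the highest sum on each list, has the lowest Lfng of its group. Its mature T cell sum includes Klf2 at 946.1, against 197.1 and 232.7 in Notch1f/f tumours 1 and 2.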

How the data were processed

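Per the submitters' processing notes, the authors deposited MAS5 signals (version not given), which are linear intensity values for each probe set. Each array had a mean of 100 once the top and bottom 2% of values were set aside. Symbols came from the platform annotation (34945 probe sets with 1 symbol, 932 with several, which were not named), and RefSeq gene identifiers changed 0 of them. List genes without a named probe set are not analysed here.

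Values were taken as log2(intensity + 16). After removal of 64 control probe sets and of all below the 40th percentile of mean log2 value (4.56, or 7.60 as intensity), 27026 remained. The Notch1f/f minus Notch1+/+ contrast was fitted by lmFit and eBayes (trend) in limma 3.58.1 under R 4.3.3, two-sided, with Benjamini-Hochberg adjustment over all tested probe sets and no covariate. A gene was represented by its probe set with the highest mean. The 3 tumours per group came from separate mice, and their number limits the precision. The fit was tested on simulated arrays. Tables and figures used Python 3.11.15 and matplotlib 3.10.9.

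The members and lists were chosen with earlier results of these data known. Named were all member probe sets; of Notch-related lists, the genes without overlap and the 3 smallest p-values; of marker lists, the 2 smallest p-values and markers under 10 in all tumours; and the 3 genes most alike to each member. Poglut1, Eogt, Notch1, Cd79a, Pax5, Pdgfrb and Klf2 were named in addition. So were Adam10, Adam17, Rbpj, Ncstn, Aph1a and Aph1b, and the dendritic cell markers Itgax, Flt3, Zbtb46, Siglech and Bst2. All of these were named after their values were seen. Alternatives were other pseudocounts, filters, scalings, eBayes settings and array weights, a mean over probe sets, and each tumour left out.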

Additional observations from a re-analysis of the deposited data

How the results depend on the processing

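The Lfng log2 difference was above 0 in all 14 alternatives that gave a value, 0.52 with a pseudocount of 64 and 2.24 with a pseudocount of 1, both by more than the spread between tumours from the 1.20 reported, and 1.05 to 1.42 with a tumour left out. With the filter at the 60th percentile Lfng was not fitted, and the count of member probe sets without overlap was 0 in place of 1; with a tumour left out it was 1 to 3, being 3 when Notch1f/f tumour 2 or Notch1+/+ tumour 1 was omitted and 2 when Notch1f/f tumour 3 was. The brightest probe sets of Mfng, Rfng and Pofut1 kept a difference below 0 in all 15 alternatives each, from -0.34 to -0.05, -0.34 to -0.0015 and -0.55 to -0.10 with a tumour left out. The dimmest Pofut1 probe set, 1456323_at, changed sign in 3 of 11 alternatives. No tested gene of the Notch-related lists passed an adjusted p of 0.05 in any alternative. Over all probe sets, 5 passed, against 3 with no filter, 11 with median centring, 27 with array weights, and 2 to 14 with a tumour left out (omitting Notch1f/f tumour 1, 2 or 3 gave 3, 12 or 2, and omitting Notch1+/+ tumour 3 gave 14); the cause was not tested. No paired analysis was possible because the labels give no replicate numbers or pairing of the tumours. Low signal limits Lfng, whose Notch1+/+ values of 4.6 and 5.3 lie under the filter intensity, and the dimmest Pofut1 probe set, with 3 of 6 tumours over it.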
